A study of Mus musculus with 8 samples.

Results

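The genes described here are the insulin-like growth factor Igf1, its serum partner Igfals, the binding protein genes Igfbp1, Igfbp2, Igfbp3, Igfbp4, Igfbp5 and Igfbp7, and the receptor genes Igf1r and Insr. They were chosen by name and make up 10 of the 54838 genes in the count files, and all 10 were found and passed the expression filter. Levels were measured by bulk RNA sequencing in 8 liver pieces of male, wild-type C57BL/6J mice, 4 labelled tumour and 4 labelled non-tumour. All mice had been injected intraperitoneally with diethylnitrosamine (DEN), a liver carcinogen, on day 15. The diet of both groups was high in fat (HFD) together with SW, which the labels do not spell out. One label puts sampling 30 weeks after the injection and another attaches 30 weeks to the diet, so the age of the mice is uncertain. There was no group without DEN or on another diet, so neither can be compared here. The source name is whole liver, and the labels do not say whether a tumour and a non-tumour piece came from the same mouse or whether pieces were pooled. Values thus measure the spread between these samples, which may be technical.

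Liver hepatocytes make most of the circulating IGF1, in response to growth hormone acting through its receptor and the transcription factor STAT5B. In blood, IGF1 travels mainly in a complex with IGFBP3 and the acid-labile subunit, the product of Igfals, while the other binding proteins hold it in smaller complexes and limit its access to receptors. Adult hepatocytes carry the insulin receptor and little IGF1 receptor, and insulin shuts off Igfbp1 by driving the factor FOXO1 out of the nucleus.

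Libraries that repeat each other were found before any comparison. Tumours 2 and 4 had nearly the same gene counts, as did non-tumour pieces 2, 3 and 4. Chi-square divided by its degrees of freedom was 1.58 to 3.28 in these 4 pairs, and 71.7 to 165 in the other 24 pairs. They were counted as 1 sample each, which left 3 tumour profiles (1, 2/4 and 3) and 2 non-tumour profiles (1 and 2/3/4). Read totals ran from 15446690 to 21977052 per library. Tumour 3 lacked the tumour marker Afp, at 1.46 CPM (reads relative to library size, scaled by the TMM method) against 425 to 842 in the other tumours and 4.71 to 19.4 in non-tumour tissue. The hepatocyte markers Alb, Apoa1 and Hnf4a were abundant in every library. The 8 hepatocyte markers summed to 1.728e+05, 1.358e+05 and 1.267e+05 CPM in tumour profiles 1, 2/4 and 3. The sums were 1.002e+05 and 1.145e+05 CPM in non-tumour profiles 1 and 2/3/4. Of the 8, 2 were higher and 1 was lower in every tumour profile. Their log2 fold changes, tumour over non-tumour, ran from -0.81 for Tat to 0.56 for Apoa1. The summed level of 7 Kupffer cell markers was 613 CPM in non-tumour 1 against 171 to 232 elsewhere. Endothelial markers summed to 393 CPM there against 187 to 241 in the other libraries. In bulk tissue, fewer cells of a type and less RNA per cell cannot be told apart.

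The sequence upstream of 2 members is shown because their promoters carry well-studied hormone response elements and their levels differed between libraries. Start windows, 250 bases before to 50 after each RefSeq start, were matched for 9 of the 10 members (12 windows, build GRCm38.p6); Insr had no entry. The part before the annotated exon is printed 5′ to 3′ on the plus strand. Capitals mark the letters searched on both strands. In Igfbp1 they are CAAAACA and CAAAATA, the parts of the insulin response element. In Igfals they are TTCNNNGAA, the STAT5 form, and GTAAACA, the forkhead form.
Igfbp1, chr11:7197537-7197781: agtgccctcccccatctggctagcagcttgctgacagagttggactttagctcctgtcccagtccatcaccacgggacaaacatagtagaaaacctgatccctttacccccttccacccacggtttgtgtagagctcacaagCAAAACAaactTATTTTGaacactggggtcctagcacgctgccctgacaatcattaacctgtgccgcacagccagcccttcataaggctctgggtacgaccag
Igfals, chr17:24877981-24878214: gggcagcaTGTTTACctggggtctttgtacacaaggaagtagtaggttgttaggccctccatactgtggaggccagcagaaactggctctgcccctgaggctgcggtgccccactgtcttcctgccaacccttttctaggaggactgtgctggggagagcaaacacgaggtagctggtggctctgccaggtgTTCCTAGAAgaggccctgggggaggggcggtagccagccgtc

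In Igfbp1 the CAAAACA match begins 108 bases and the CAAAATA match, on the other strand, 97 bases before the RefSeq start. CAAAACA was present in 6.28% and CAAAATA in 4.36% of 32851 promoter windows of the same length. In Igfals, which has 3 RefSeq start windows, the printed stretch lies before the second start and in an intron of longer annotated transcripts. Its TTCNNNGAA match begins 58 bases before that start, and 8.3% of all windows held such letters, and 3.65% held GTAAACA. Among the 9 members with windows, CAAAACA was found in Igfbp1 alone and TTCNNNGAA in Igfals alone, and a match is a description of letters, not of a bound site.

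Whether the axis differs between the tumours and the other liver pieces is the question the groups address. The binding protein genes Igfbp1, Igfbp3 and Igfbp5 had the largest positive and Igfals and Igf1 the largest negative fitted differences among the 10, and none passed the test. With repeated libraries counted once, the quasi-likelihood test of edgeR, with p-values adjusted by Benjamini-Hochberg, called 0 of the 10 members and 0 of 13650 genes (0%). DESeq2 on the same profiles called 2 genes, neither a member, and limma voom 0. Igfbp5 was the 1 member with an unadjusted edgeR p under 0.05, a level that 451 genes or 3.3% of all reached. Its edgeR p was 0.0416 before adjustment. With the 8 libraries taken as separate replicates edgeR called 56 of 12880 genes (0.435%), again with no member among them, and 5 members had an unadjusted p under 0.05 where 18% of all genes did. The median log2 fold change of the 10 was -0.089, beside 0.014 for all genes tested, and 4 were positive and 6 negative. Tumour and non-tumour profiles did not overlap for 2 members, Igfbp3 and Igfbp5, both higher in tumours, where 10% of all genes were higher without overlap, 8.32% lower and 18.3% either way. A share of 2 in 10 is near that background.

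**Figure D1:**
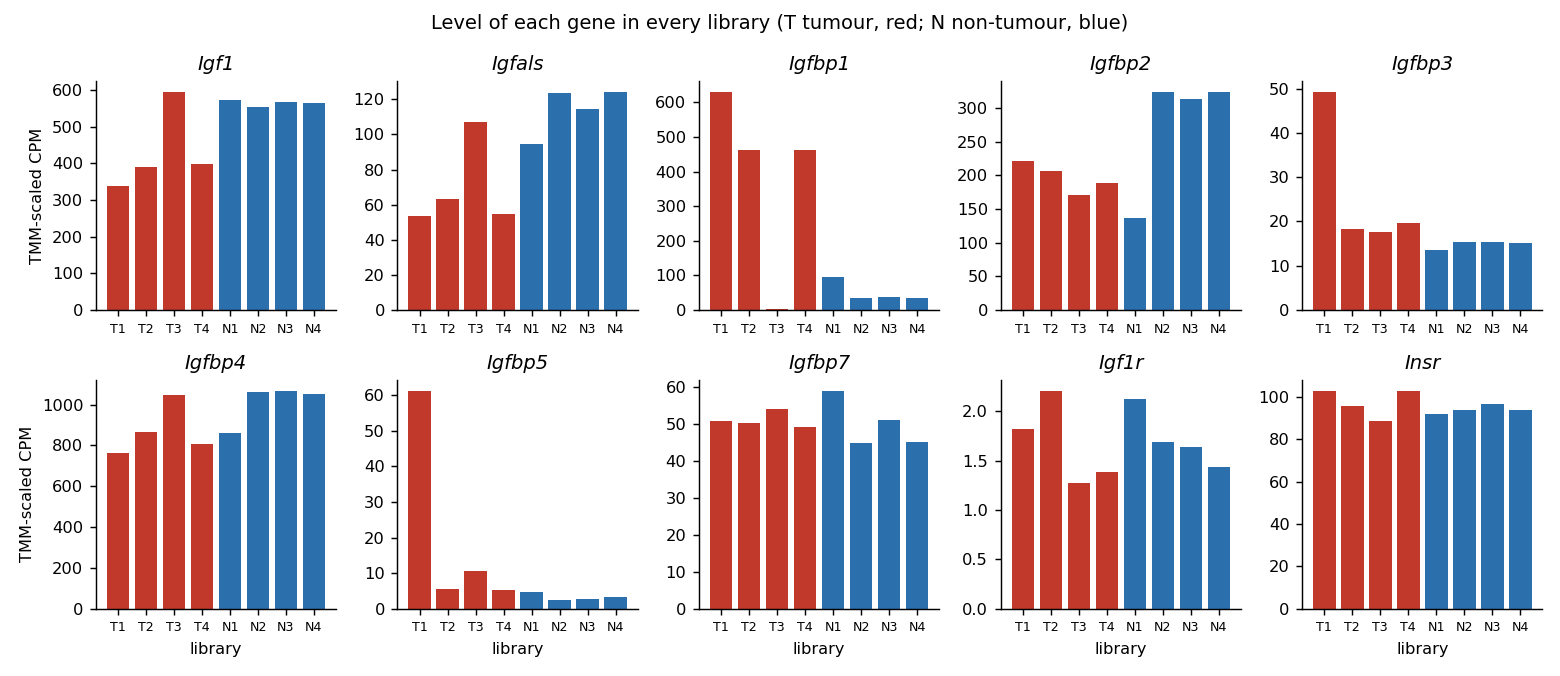
Level of each of the 10 genes (TMM-scaled CPM, 1 bar per library, linear axes from 0) in tumour libraries T1 to T4 and non-tumour libraries N1 to N4. T2 and T4, and N2, N3 and N4, are near-identical libraries; Igfbp1 ranges from 3.93 CPM in T3 to 630 CPM in T1, while Insr stays between 88.7 and 103 CPM.

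Igf1, the ligand (GRCm38, chromosome 10, 87858265 to 87937042), had 339, 390, 595 and 399 CPM in tumours 1 to 4. In non-tumour pieces 1 to 4 it stood at 574, 554, 568 and 565 CPM. Tumours 1, 2 and 4 were below all non-tumour libraries and tumour 3 was above all of them, so that the groups overlapped. The means were 443 ± 135 CPM (SD, n = 3 tumour profiles) and 568 ± 8.48 CPM (SD, n = 2 non-tumour profiles). The log2 fold change was -0.37 (SE 0.29, 95% interval -1.08 to 0.34, edgeR adjusted p = 0.995). The interval runs from 0.473 to 1.27 times the non-tumour level. It was -0.64 without tumour 3 and -0.21 without tumour 1. An antisense gene, Igf1os, overlaps Igf1, and the authors' counting used strand.

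Igfals, the acid-labile subunit that keeps IGF1 in the blood (chromosome 17, 24865997 to 24882010), also had its highest tumour value in tumour 3 and its lowest in tumour 1. It stood at 53.3, 63.2, 107 and 54.8 CPM in tumours 1 to 4 and at 94.4, 123.5, 114 and 124 CPM in non-tumour pieces 1 to 4. Tumours 1, 2 and 4 lay below all non-tumour libraries, and tumour 3 lay between non-tumour 1 and non-tumour 3. The means were 73.1 ± 29.5 CPM (SD, n = 3) and 107.5 ± 18.6 CPM (SD, n = 2), with a log2 fold change of -0.57 (SE 0.34, 95% interval -1.38 to 0.24, edgeR adjusted p = 0.995). It was -0.95 without tumour 3 and -0.37 without non-tumour pieces 2, 3 and 4. The ratio of Igf1 to Igfals per kilobase of exon ran from 1.49 in non-tumour 2/3/4 to 2.14 in tumour 2/4. That of Igf1 to Igfbp3 ran from 2.175 in tumour 1 to 13.37 in non-tumour 1.

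Igfbp1 encodes the binding protein that insulin represses and fasting raises (chromosome 11, 7197782 to 7202546), and its upstream sequence is printed above. It stood at 630, 463, 3.93 and 463 CPM in tumours 1 to 4. In non-tumour pieces 1 to 4 it stood at 95.5, 35.7, 36.4 and 35.95 CPM. The raw reads behind the lowest and the highest value numbered 62 in tumour 3 and 13834 in tumour 1. Tumours 1, 2 and 4 were far above every non-tumour library and tumour 3 was below all of them, so the groups overlapped at both ends. The highest profile was 160 times the lowest, and 8 of 7174 genes with a mean of at least 10 CPM had a wider range, against a median ratio of 1.48. The fitted log2 fold change was 2.47 (SE 1.62, 95% interval -1.45 to 6.39, edgeR adjusted p = 0.995). Limma voom, which averages log values, put it at 0.53, and edgeR without single profiles at 1.82 (without tumour 1) to 3.32 (without non-tumour 1). The order of the profiles, from tumour 1 through tumour 2/4, non-tumour 1 and non-tumour 2/3/4 down to tumour 3, was also that of Afp, at 842, 425 and 427, 19.4, 4.71 to 5.06 and 1.46 CPM. Scd2 and Tspan8 had this order too, and the share of all genes with it was not counted. Cholangiocyte markers summed to 405 CPM in tumour 1, 193 in tumour 2/4, 22.6 in tumour 3 and 35.0 and 36.6 in the non-tumour profiles. Most of that sum came from Spp1 and Tspan8, while Krt19 and Epcam were under 3 CPM in every profile, and the part of these cells in the Igfbp1 level was not tested.

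Igfbp3 carries most IGF1 in the blood with Igfals and in liver is made largely outside hepatocytes (chromosome 11, 7206086 to 7213923). It stood at 49.2, 18.2, 17.7 and 19.7 CPM in tumours 1 to 4 and at 13.6, 15.3, 15.35 and 15.2 CPM in non-tumour pieces 1 to 4. Every tumour library was above every non-tumour library, tumour 1 by the widest margin. Its log2 fold change was 0.98 (SE 0.48, 95% interval -0.17 to 2.13, edgeR adjusted p = 0.995), and 0.34 without tumour 1. Igfbp3 lies tail to tail with Igfbp1, 3539 bases away and with no gene between them. The neighbours shared their pattern only in part. Tumour 1 and then tumour 2/4 were the highest profiles for both, but tumour 3 was lowest for Igfbp1 and above all non-tumour libraries for Igfbp3.

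Igfbp5 encodes a binding protein that attaches to matrix (chromosome 1, 72857932 to 72874884). It stood at 61.3, 5.45, 10.5 and 5.38 CPM in tumours 1 to 4. In non-tumour pieces 1 to 4 it stood at 4.69, 2.45, 2.73 and 3.18 CPM. Every tumour library was again above every non-tumour library, and tumour 1 stood far above the other tumours. The mean was 25.7 ± 30.9 CPM in tumours (SD, n = 3) and 3.74 ± 1.35 CPM in non-tumour tissue (SD, n = 2). Its log2 fold change of 2.79 (SE 1.10, 95% interval 0.15 to 5.44, edgeR adjusted p = 0.995) came down to 1.08 without tumour 1.

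Some stellate cell and fibroblast markers, Reln, Col3a1, Acta2 and Col1a1 among them, were highest in tumour 1, as Igfbp3 and Igfbp5 were. The 10 of them summed to 256 CPM in tumour 1 and to 209 to 228 CPM in the other libraries, a sum of which Dcn alone gave 102 to 152 CPM. The stellate cell gene Reln stood at 62.1 CPM and the collagen gene Col3a1 at 36.9 CPM in tumour 1, against 27.6 to 48.8 and 15.1 to 24.0 CPM in the other profiles. None of the 10 was higher in every tumour profile than in both non-tumour profiles, and 2, Lrat and Hgf, were lower in all. The log2 fold changes of the 10 ran from -0.98 for Hgf to 0.77 for Acta2. Those of Des (-0.11), Lum (-0.029), Dcn (0.025) and Pdgfrb (0.11) were small. In tumour 1 the smooth muscle and myofibroblast gene Acta2 stood at 7.15 CPM and Col1a1 at 8.65 CPM, against 1.59 to 2.53 and 2.83 to 4.06 CPM in the other profiles. The part of such cells in the Igfbp3 and Igfbp5 levels of tumour 1 was not tested.

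Igfbp2, a binding protein made by hepatocytes (chromosome 1, 72824503 to 72852474), stood at 222, 207, 170.5 and 188 CPM in tumours 1 to 4. In non-tumour pieces it stood at 136 CPM in piece 1 and at 324, 314 and 323 CPM in pieces 2 to 4. The 4 tumours lay between the 2 non-tumour profiles, which differed by more than any pair of tumours. For Igfbp2 the log2 fold change was -0.23 (SE 0.37, 95% interval -1.13 to 0.67, edgeR adjusted p = 0.995), and -0.73 without non-tumour 1. Its direction turned to 0.52 without non-tumour pieces 2, 3 and 4. Igfbp5, 5457 bases away and tail to tail with it, had non-tumour 1 above the other non-tumour pieces, the reverse of Igfbp2.

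Igfbp4, which binds IGF1 until a protease cleaves it (chromosome 11, 99041244 to 99054392), had the highest CPM of the 10. It stood at 765, 868, 1045 and 808 CPM in tumours 1 to 4 and at 863, 1063, 1069 and 1052 CPM in non-tumour pieces 1 to 4. Tumour 3 was close to non-tumour pieces 2 to 4, and tumour 2 was close to non-tumour 1. For Igfbp4 it was -0.13 on the log2 scale (SE 0.26, 95% interval -0.76 to 0.50, edgeR adjusted p = 0.995). Its direction turned to 0.028 without non-tumour pieces 2, 3 and 4.

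Igfbp7, a low-affinity IGF binder found in vessel walls (chromosome 5, 77349240 to 77408041), varied little. It stood at 50.8, 50.4, 54.0 and 49.3 CPM in tumours 1 to 4 and at 59.0, 44.75, 51.1 and 45.0 CPM in non-tumour pieces 1 to 4. The tumours lay within the range of the non-tumour libraries. Igfbp7 had a log2 fold change of -0.045 (SE 0.17, 95% interval -0.46 to 0.37, edgeR adjusted p = 0.996), an interval of 0.729 to 1.29 times. Without non-tumour 1 its direction turned, to 0.12. Non-tumour 1, the library with the most Igfbp7, was also the one with the most endothelial marker RNA, whose part was not tested.

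The receptors differed far more from each other than between tissues. Insr, the insulin receptor (chromosome 8, 3122061 to 3279617), stood at 103, 96.0, 88.7 and 103 CPM in tumours 1 to 4 and at 92.0, 93.9, 96.6 and 93.9 CPM in non-tumour pieces 1 to 4. Its log2 fold change was 0.048 (SE 0.17, 95% interval -0.36 to 0.46, edgeR adjusted p = 0.995). Of 7174 genes with at least 10 CPM, 94.6% had a wider range over the profiles than Insr. Counts were summed over exons, so the receptor's splice forms were not resolved.

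Igf1r, the IGF1 receptor (chromosome 7, 67952827 to 68233668), had the lowest level of the 10. It had 40, 45, 20 and 28 reads in tumours 1 to 4 and 42, 29, 24 and 23 reads in non-tumour pieces 1 to 4. This gave 1.27 CPM in tumour 3 at the lowest (95% exact Poisson interval 0.775 to 1.96) and 2.21 CPM in tumour 2 at the highest (1.61 to 2.96), intervals that cover counting error only and that overlap. Tumour 4, which repeats tumour 2, was at 1.38 CPM. Igf1r had a log2 fold change of -0.18 (SE 0.35, 95% interval -1.03 to 0.68, edgeR adjusted p = 0.995). Without non-tumour 1 its direction turned, to 0.025. Per kilobase of exon, Insr was 53.1 to 85.5 times Igf1r in the 5 profiles.

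**Figure D2:**
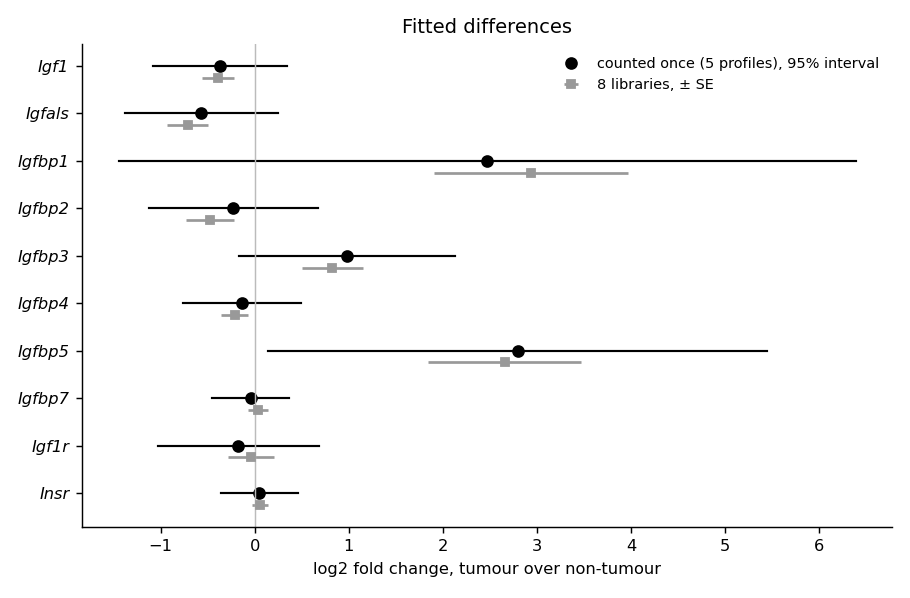
Fitted log2 fold change of tumour over non-tumour for each of the 10 genes, as black points with 95% intervals over the 5 profiles and as grey squares with SE over the 8 libraries. The interval of Igfbp5 (0.15 to 5.44) is the one that leaves out 0, before adjustment over 13650 genes, and the interval of Igfbp1 is the widest.

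Levels of different genes can be compared only per length, here as CPM per kilobase of exon. The length is the union of all annotated exons, which understates genes with long alternative exons such as Igf1r, at 16791 bases. In the mean over the 5 profiles the order was Igfbp4 (207 CPM per kilobase), Igfbp1 (161), Igfbp2 (113), Igf1 (49.8), Igfbp7 (43.1), Igfals (27.4), Igfbp3 (7.33), Insr (6.96), Igfbp5 (2.82) and Igf1r (0.102). Igf1 ran from 34.2 to 60.1 and Igfbp7 from 38.8 to 48.8, so this pair did not differ beyond its spread. Igfbp3 (4.34 to 15.7), Insr (6.45 to 7.498) and Igfbp5 (0.464 to 10.2) also overlapped, and Igfbp1 overlapped all but Igf1r. Igfbp2 lay above Igf1, Igfbp7 above Igfals, Igfals above Igfbp3 and Igfbp5 above Igf1r in every profile. Igfbp1 had no fixed place, being at rank 1 in tumour 1 and tumour 2/4, rank 3 in non-tumour 1, rank 6 in non-tumour 2/3/4 and rank 8 in tumour 3. Igf1r was last in all 5.

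The makeup of the binding protein transcripts followed Igfbp1. It gave 53.3% of the sum of the 6 genes in tumour 1 and 46.8% in tumour 2/4, against 0.672% in tumour 3, 16.2% in non-tumour 1 and 4.91% in non-tumour 2/3/4. The sum itself was 775 and 649 CPM per kilobase in tumour 1 and tumour 2/4, and 384 to 482 in the other 3 profiles. Igfbp4 gave 22.4% and 29.3% in those tumours and 49.9% to 61.7% elsewhere. Igf1 per kilobase came to 0.0442 of the binding protein sum in tumour 1 and 0.0614 in tumour 2/4, and to 0.118 to 0.157 in the other 3. Tumour 3 thus lay with the non-tumour profiles in this ratio. Igfbp1 is part of the sum, so this ratio and the Igfbp4 share largely restate the Igfbp1 level. These are shares of RNA, and protein was not measured.

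**Figure D3:**
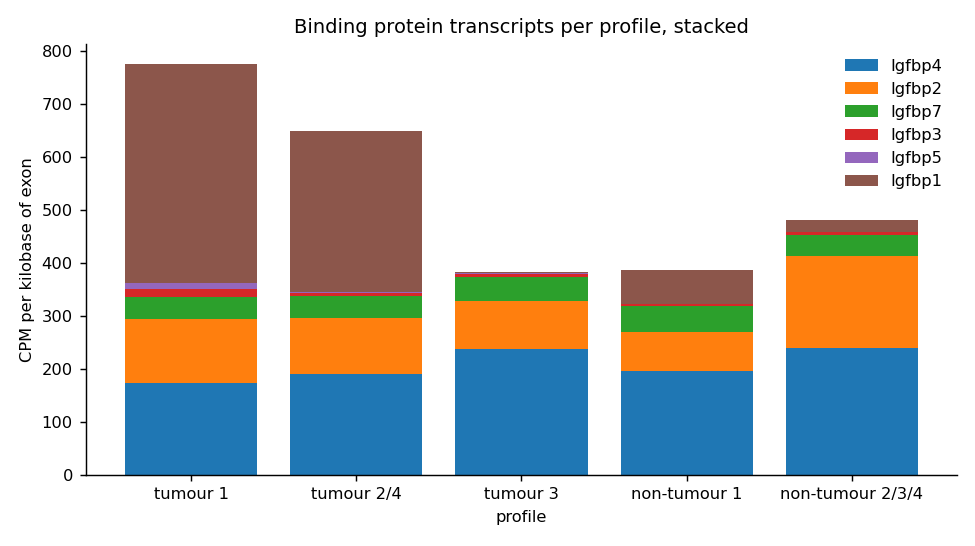
Stacked level of the 6 binding protein genes (CPM per kilobase of exon, linear axis from 0) in the 5 profiles. Igfbp1 makes up 53.3% of the stack in tumour 1 and 0.672% in tumour 3, while the part formed by the other 5 genes differs less.

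The other genes of the pathway were taken as lists chosen with earlier results of these data known. No tested gene of the 4 lists passed edgeR's adjusted threshold with repeated libraries counted once, where 0% of all genes did. Of 16 other ligands, binding partners and proteases, 5 were expressed highly enough to be tested. Igf2, the fetal ligand, had at most 1 read in any library, and the fetal RNA-binding protein gene Igf2bp3 had at most 5. Neither insulin gene had a read. Igfbp6, a binding protein that prefers IGF2, had 178, 17, 13 and 19 reads in tumours 1 to 4 and 0 to 3 in each non-tumour library (edgeR unadjusted p = 0.0123, adjusted p = 0.995). It was highest in tumour 1, as Igfbp3 and Igfbp5 were. Igf2r, which clears IGF2, stood at 26.6 CPM in tumour 3 at the lowest and 43.7 CPM in tumour 1 at the highest, and the groups overlapped. Stc1, whose protein blocks the protease that cleaves IGFBP4, had 49, 28, 0 and 36 reads in tumours 1 to 4 and 14, 0, 0 and 1 in non-tumour pieces 1 to 4.

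Growth hormone input was described by 13 genes, of which 11 were tested, 2 with a positive and 9 with a negative fold change. Their median log2 fold change was -0.26, beside 0.014 for all genes. Ghr, the growth hormone receptor, stood at 382, 498 and 671 CPM in tumour profiles 1, 2/4 and 3 and at 561 and 674 CPM in non-tumour profiles 1 and 2/3/4. Tumour profiles 1 and 2/4 were thus lowest for Ghr, as they were for Igf1 and Igfals. Stat5b, the factor that carries the signal to Igf1, stood at 41.2 ± 5.29 CPM in tumours (SD, n = 3) and 53.6 ± 3.05 CPM in non-tumour tissue (SD, n = 2), without overlap (log2 fold change -0.39, SE 0.17, edgeR adjusted p = 0.995). In contrast to Igf1 it was lowest in tumour 3, at 35.1 CPM. Socs2, a feedback inhibitor induced by the same factor, was at 16.6, 18.7 and 7.86 CPM in tumour profiles 1, 2/4 and 3 and at 12.8 and 8.45 CPM in the non-tumour profiles. Onecut1, a hepatocyte transcription factor gene, reached 22.9 CPM in non-tumour 1 against 2.66 to 8.43 CPM in the other profiles.

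Among 39 genes of insulin and IGF receptor signalling, 37 were tested, 11 positive and 26 negative, with a median log2 fold change of -0.13. Akt2, the main hepatocyte AKT kinase, stood at 48.6, 47.6, 42.3 and 52.2 CPM in tumours 1 to 4 and at 66.6, 61.2, 61.6 and 63.4 CPM in non-tumour pieces 1 to 4. The groups did not overlap, with a log2 fold change of -0.46 (SE 0.16, 95% interval -0.85 to -0.08, edgeR unadjusted p = 0.0259, adjusted p = 0.995). Trib3, a pseudokinase that binds AKT, stood at 24.3, 30.7, 7.86 and 30.5 CPM in tumours 1 to 4 and at 5.196 to 9.21 CPM in non-tumour libraries (log2 fold change 1.66, SE 0.57, edgeR unadjusted p = 0.0252, adjusted p = 0.995). Its tumour 3 value lay inside the non-tumour range. Grb10, an imprinted adaptor that restrains both receptors, had a like pattern, at 8.29, 12.7 and 2.47 CPM in tumour profiles 1, 2/4 and 3 and 3.83 and 1.58 CPM in the non-tumour profiles. Sos1, a RAS activator below the receptors, averaged 29.9 ± 2.38 CPM in tumours (SD, n = 3) and 38.2 ± 1.58 CPM in non-tumour tissue (SD, n = 2). The receptor substrate Irs1 had a log2 fold change of -0.018 (SE 0.21) and Irs2 of -0.35 (SE 0.36), and the groups overlapped for both. Foxo1 stood at 19.7 ± 2.51 CPM in tumours (SD, n = 3) and 23.6 ± 1.37 CPM in non-tumour tissue (SD, n = 2).

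The 18 insulin and FOXO1 target genes, Igfbp1 among them, were all tested, 9 positive and 9 negative, with a median log2 fold change of 0.029. Pck1, which insulin represses as it does Igfbp1, stood at 282, 403 and 705 CPM in tumour profiles 1, 2/4 and 3 and at 304 and 1380 CPM in the non-tumour profiles. Tumour 3, the lowest profile for Igfbp1, was the highest tumour for Pck1. G6pc, the last step of glucose output, stood at 239, 272 and 144 CPM in the tumour profiles and at 361 and 324 CPM in the non-tumour profiles (edgeR unadjusted p = 0.0694). It was lowest in tumour 3, as Igfbp1 was, but highest in the non-tumour profiles. Angptl8, an insulin-induced secreted protein, stood at 82.5, 79.0 and 48.9 CPM in the tumour profiles and 37.9 and 34.1 CPM in the non-tumour profiles (log2 fold change 0.95, SE 0.26, edgeR adjusted p = 0.995). It was the one list gene called with 8 libraries as separate replicates (edgeR adjusted p = 0.0384).

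**Figure D4:**
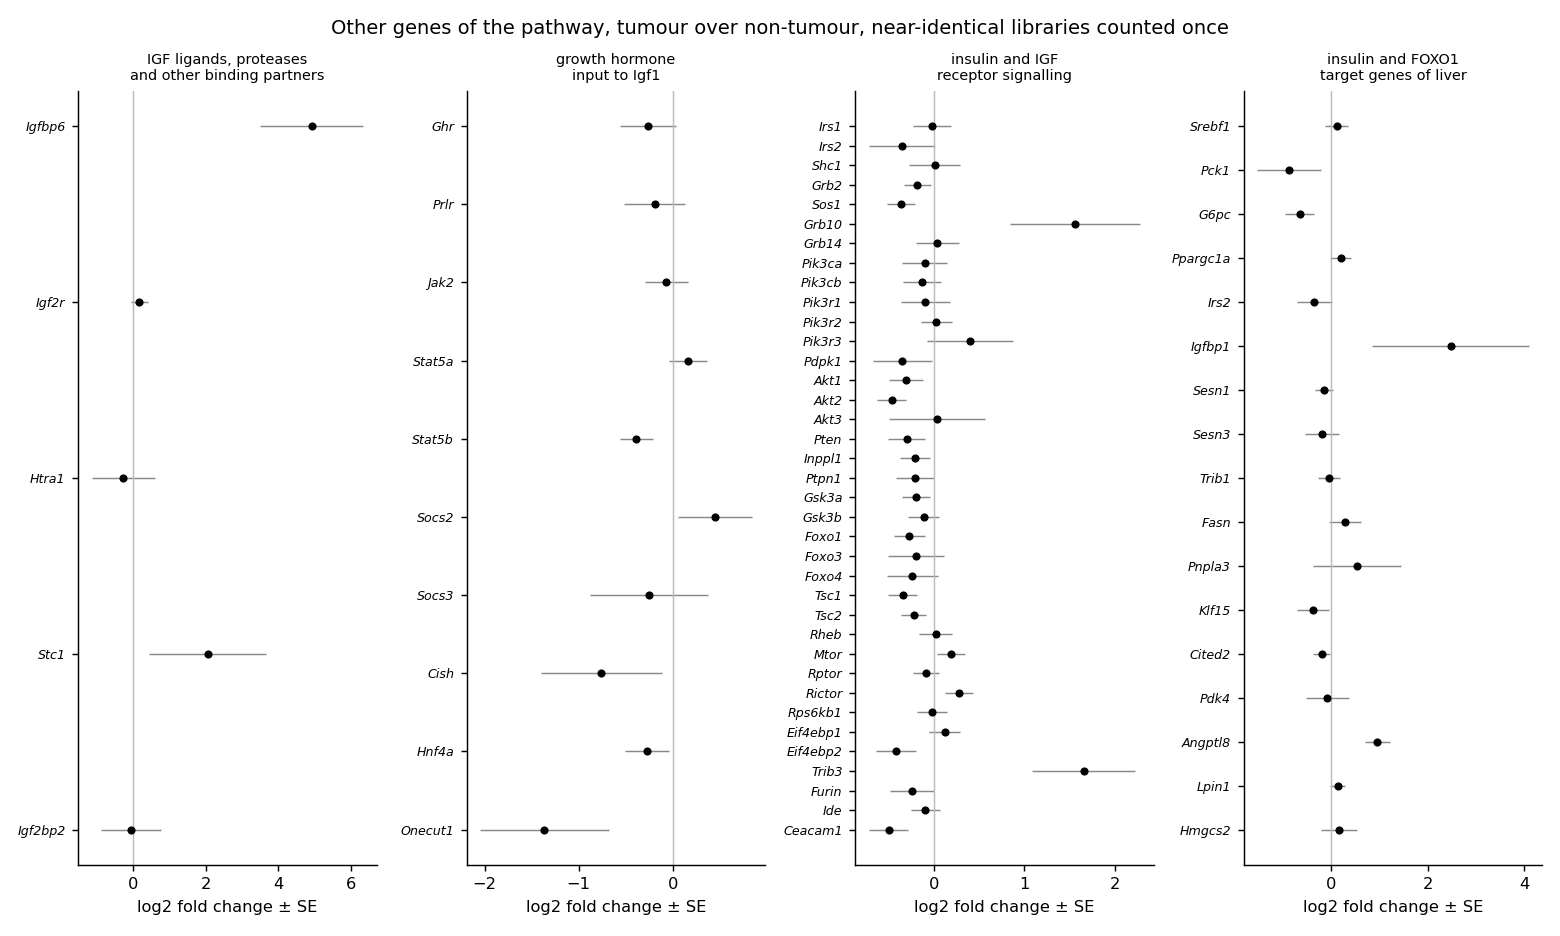
Fitted log2 fold change (± SE) of tumour over non-tumour, with repeated libraries counted once, for tested genes of the 4 pathway lists, of which 2 are not shown. Axes differ between panels; most genes of receptor signalling lie within 0.5 of 0, and Igfbp6, whose non-tumour libraries hold 0 to 3 reads each, and Igfbp1 have the largest values.

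The genes whose profile was most like that of a member were sought among 7174 genes with a mean of at least 10 CPM, by the root mean square difference of centred log2 CPM over the 5 profiles. With 5 points and so many genes, close matches arise readily, and they are given as a description. Igf1 was nearest to Pitpnc1 (0.056), Homer2 (0.082) and Slco2b1 (0.084). Slco2b1, an organic anion transporter, stood at 87.3, 121 and 164 CPM in tumour profiles 1, 2/4 and 3 and at 161 and 150 CPM in the non-tumour profiles, so that it shared the low values of tumours 1, 2 and 4. Igfbp2 was nearest to Zfp36 (0.057), Pir (0.087) and Btg1 (0.12), and Igf1r to Glyr1 (0.016), Ankfy1 (0.026) and Mapk1ip1l (0.026). With 20 to 45 reads per library, the Igf1r profile carries a large counting error. Its repeated libraries tumour 2 and 4 stood at 2.21 and 1.38 CPM. The distances for Igfbp1 were far larger, with Scd2 (0.66), Tspan8 (0.73) and Klrb1b (0.75) nearest. The measure is not scaled to a gene's range, so distances of different members do not rank their matches. The highest profile was 160 times the lowest for Igfbp1 and 1.67 times for Igf1r. Scd2, a fatty acid desaturase, stood at 280, 223 and 5.77 CPM in the tumour profiles and at 101 and 23.0 CPM in the non-tumour profiles, and so shared the profile order of Igfbp1.

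**Figure D5:**
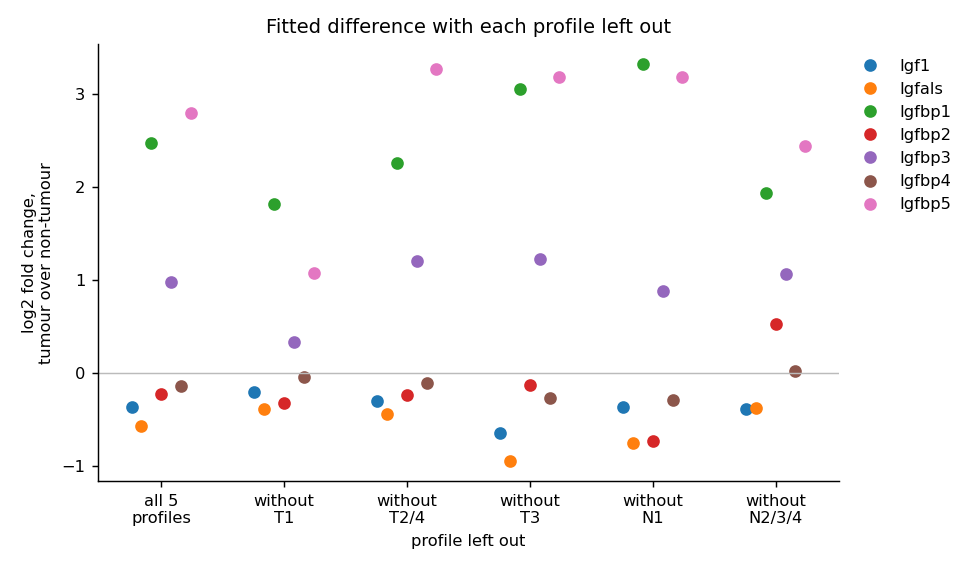
Fitted log2 fold change of tumour over non-tumour for 7 members with all 5 profiles and with each profile left out. Igfbp5 and Igfbp3 come down to 1.08 and 0.34 without tumour 1, and Igfbp2 changes sign, to 0.52, without non-tumour 2/3/4.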

How the data were processed

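Liver RNA of 8 samples was measured, and the deposited values are raw counts of reads per gene. Per the file headers, the authors counted with featureCounts 1.6.2 over exons of Ensembl release 95 (GRCm38), strand setting 2, without multi-mapping reads. The submitters' processing notes name STAR 2.5.0. Symbols matched 54723 of 54838 IDs. Libraries of a group whose counts differed by a chi-square per degree of freedom under 10 (over genes holding at least 20 reads between them) were summed for tests and averaged for levels. Totals were 15446690 to 21977052, and 3 counts equal 0.136 to 0.194 CPM.

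Tests used edgeR 4.0.16 in R 4.3.3 (TMM, filterByExpr with minimum count 10 and total 15, robust glmQLFit, Benjamini-Hochberg over all genes, threshold 0.05). SEs are the log2 fold change over the root of F. On simulated data with 5 profiles (13379 to 13452 genes), 1 dispersion of 0.0823 was used for every gene. Recovery there was 15.3% for true log2 changes of 1 and 88.7% for true log2 changes of 2. The fit of the measured counts let dispersion differ between genes (median prior degrees of freedom 3.37). The percentages therefore hold for the simulated data only, and recovery with dispersions that differ between genes was not tested.

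The members, lists and tests were chosen with earlier results of these data known. Named genes are the members, the 3 lowest p-values per list, 13 fixed genes and the 3 nearest profiles of Igf1, Igfbp1, Igfbp2 and Igf1r. Afp and the marker genes named were added for context. Results for 2 of the fixed or lowest-p genes are not reported here. Alternatives covered scaling, filters, DESeq2 1.42.0, limma 3.58.1 voom, a replicate block, all 8 libraries and leaving out libraries.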

Additional observations from a re-analysis of the deposited data

How the results depend on the processing

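Over 22 alternatives the 10 members gave 220 log2 fold changes, of which 212 kept their direction and 6 had an adjusted p under 0.05. Igfbp7 turned positive with 8 libraries separate (0.032), with a replicate block (0.041), without non-tumour 1 (0.12, the lowest of the fits leaving out 1 library being -0.080 without tumour 3) and with 8 libraries separate without tumour 3 (0.00094). Igf1r did so without non-tumour 1 (0.025, against -0.31 without tumour 2 at the lowest) and with 8 libraries separate without tumour 3 (0.059), and Igfbp2 (0.52) and Igfbp4 (0.028) without non-tumour pieces 2, 3 and 4. Genes called numbered 0 with repeated libraries counted once, 56 with 8 libraries separate and 0 with those and a replicate block. They numbered 427 of 24531 (1.74%) with no filter, 2 with DESeq2, and 1798 of 13211 (13.6%) with 8 libraries separate without tumour 3. Leaving out 1 tumour library gave 0 to 5, the 5 without tumour 3, and leaving out non-tumour 2, 3 or 4 gave 0. With no filter edgeR's prior degrees of freedom were infinite, against a median of 3.37 in the filtered fit with repeated libraries counted once. In that unfiltered fit 3 of 10 members (Igfbp1, Igfbp3 and Igfbp5) were called. So were 1 of 13 ligand, 2 of 13 growth hormone, 2 of 38 signalling and 2 of 18 target genes. With 8 libraries separate without tumour 3, 3 of 10 members were called (Igfbp1 higher at 3.34, Igf1 at -0.59 and Igfals at -1.001 lower). Of those lists' tested genes 3 of 5, 4 of 11, 6 of 37 and 3 of 18 were called, where 13.6% of all were. With 8 libraries separate 1 target gene was called. The cause of these shifts in calls was not tested. Deviations of same-numbered libraries correlated at 0.35, -0.15, 0.29 and -0.12. Whether the replicate numbers pair the samples cannot be settled, since repeated libraries cannot show which number matches which. The order of members per kilobase was the same in TPM for 10 of 10. Depth limits Igf1r, Igfbp6 and Stc1. Single outlying samples were not sought, since groups of 3 and 2 profiles are too small.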

Other observations

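A pair of growth hormone feedback genes, chosen after their values were seen, differed in which tumours were low. Cish, an inhibitor induced through STAT5, stood at 15.1, 5.65, 29.9 and 4.19 CPM in tumours 1 to 4 and at 24.2, 31.2, 29.7 and 31.9 CPM in non-tumour pieces 1 to 4. Its lowest values were in tumours 2 and 4, where Socs2 was highest, at 18.8 and 18.7 CPM. The log2 fold change was -0.76 for Cish (SE 0.64) and 0.45 for Socs2 (SE 0.40), neither passing edgeR's test (adjusted p = 0.995 for both), and the difference between them was not tested. As for Igfals, tumours 1, 2 and 4 were below every other library for Cish.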
